A study of Mus musculus with 4 samples.

Results

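Dlx1, Dlx2, Dlx5 and Dlx6 and the opposite-strand transcripts Dlx1as and Dlx6os1 were followed through an RNA immunoprecipitation of Cpeb4 from mouse V-SVZ, the ventricular-subventricular tissue beside the lateral ventricles, where neurons are still born after birth. Members were taken by gene symbol. The 6 symbols stood on 7 of the 53379 gene identifiers in the deposited table, because Dlx6os1 is carried by 2 identifiers, and all 7 passed the filter on low values (15745 genes tested). Lysates came from CD1 mice of wild-type genotype, aged P7 or P8 (days after birth), and the labels name no treatment. The first group was RNA recovered with an anti-Cpeb4 antibody, and the control group was RNA recovered with anti-IgG, which measures what sticks without the target. Both antibodies were used in 2 experiments, which gave 2 libraries per antibody and 4 in all. The labels do not say whether the experiments used separate animals or how many were pooled, so p-values cover the spread between these libraries, which may be technical. No library of the starting lysate was analysed here. In such tissue lysates the number of cells of a type and the RNA per cell cannot be told apart.

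Dlx genes encode homeodomain transcription factors that specify GABAergic interneurons of the ventral forebrain. In the postnatal V-SVZ they are known for their activity in the transit amplifying cells and neuroblasts that supply interneurons to the olfactory bulb. They sit in the genome as pairs that point towards each other and share the enhancers between them, and each pair has a noncoding transcript from the other strand. Dlx6os1, also called Evf2, is a long noncoding RNA known to recruit Dlx proteins to the enhancers of the Dlx5 and Dlx6 locus. Cpeb4 is an RNA-binding protein that recognises U-rich elements near the 3′ end of mRNAs and controls their poly(A) tail length and translation.

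The data showed a split inside the family. Dlx6os1 was 2.83-fold higher in Cpeb4 than in IgG precipitates on the FPKM + 1 scale (FPKM: fragments per kilobase of gene, normalised for depth), and Dlx2 was 1.76-fold higher. Dlx6 was 2.06-fold lower on the same scale. Dlx1, Dlx5, Dlx1as and the second, short Dlx6os1 identifier were not called. Calls were made with limma on log2(FPKM + 1), with the experiment as a block and Benjamini-Hochberg adjustment over all genes tested, at an adjusted p under 0.05. Of the 7 identifiers, 2 were called higher, against 38.8% of all tested genes, and 1 lower, against 11.6%. The Cpeb4 and IgG libraries did not overlap for 5 of the 7, against 75.9% of tested genes. With counts this small, the members' shares do not stand apart from those backgrounds. The median log2 fold change of the 7 was 0.14, beside 0.19 over all genes tested.

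Libraries held 22486721 to 35037171 reads on genes, as recovered from the steps in the deposited FPKM, and each member except the short Dlx6os1 identifier had at least 122 reads in every library. Intervals on reads cover counting error only. Neuroblast markers (Dcx, Tubb3, Stmn2, Cd24a, Sp8 and Sox11) summed to 369 to 370.03 FPKM in IgG and 578 to 630 FPKM in Cpeb4 libraries, and 5 of the 6 were called higher. Markers of cortical excitatory neurons, a neighbouring tissue, summed to 20.8 to 24.3 FPKM over all 4 libraries, and 1 of 3 tested was called higher and 0 lower. Slc17a7 gave most of that sum, at 12.8 to 15.2 FPKM, Neurod6 was called higher (log2 0.43, limma adjusted p = 0.0139), and Emx1 was under 1 FPKM. Choroid plexus markers summed to 54.9 to 70.5 FPKM, most of it Ttr, with Kl under 1 FPKM and 0 of 2 tested called. Over all tested genes 38.8% were called higher and 11.6% lower. Of the other marker lists, 4 of 6 astrocyte and stem cell genes were called higher and 1 lower, 3 of 4 transit amplifying genes higher and 1 lower, 3 of 6 striatal neuron genes higher and 0 lower, and 5 of 6 oligodendrocyte genes higher and 0 lower. Ependymal genes gave 0 higher and 2 lower of 4, microglial genes 1 and 1 of 4, and endothelial genes 0 and 1 of 4. The part of these markers in the Dlx results was not tested.

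How the libraries are scaled moves every fold change together. The median of tested genes was 0.19 with the authors' scaling, and it shifted by -0.22 with trimmed mean of M-values, -0.30 with centring on each library's median log2 level of tested genes, -0.36 with the upper quartile and -0.42 with read totals. Changes are therefore also given relative to that median.

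**Figure D1:**
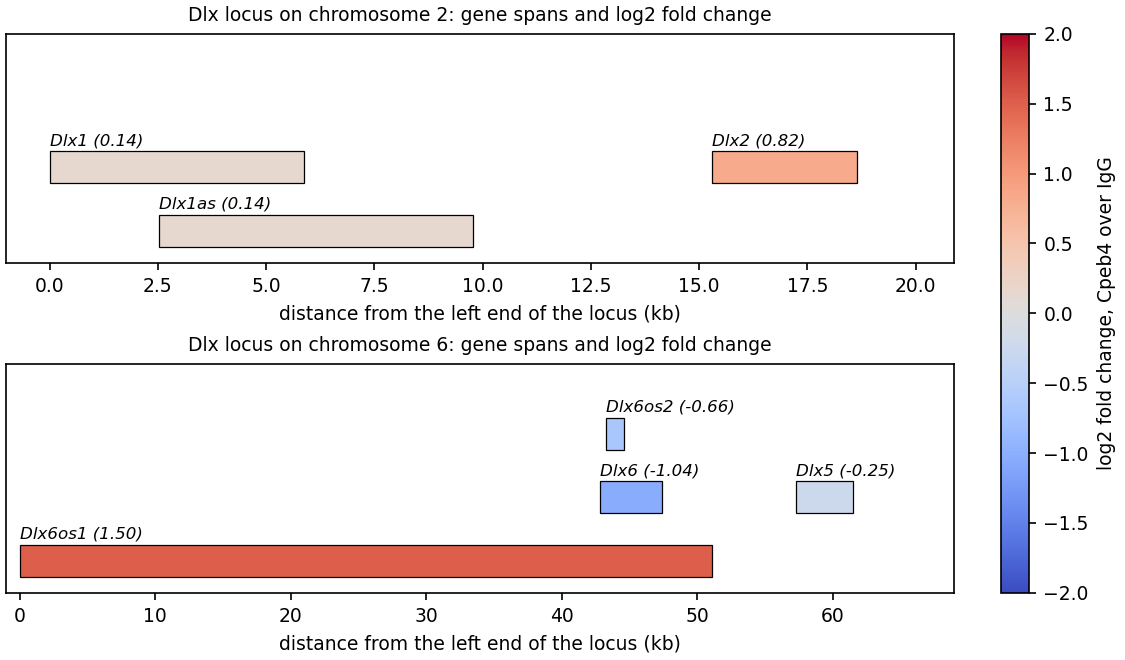
Gene spans of the 2 Dlx loci (GRCm38.p6), drawn as distance in kilobases from the left end of each locus, with each gene's log2 fold change of Cpeb4 over IgG in brackets and as colour (Dlx6os1 by its main identifier). Dlx6 (-1.04) and Dlx6os2 (-0.66) lie inside the span of Dlx6os1 (1.50).

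Both loci were placed with RefSeq on GRCm38.p6, the assembly called mm10 in the submitters' processing notes. On chromosome 2, Dlx1 spans 71528113 to 71533981 and Dlx2 71543408 to 71546754, with 9426 bases between them. Dlx1as spans 71530638 to 71537891 and overlaps Dlx1 over 3344 bases, 57% of the Dlx1 span. On chromosome 6, Dlx6os1 spans 6820543 to 6871627, Dlx6 6863334 to 6867970 and Dlx5 6877801 to 6882068. The whole of Dlx6 lies within the Dlx6os1 span, of which it takes 9.08%. Another transcript, Dlx6os2 (6863797 to 6865150), lies wholly inside Dlx6. The cDNA carries no strand mark, so reads from a stretch shared by a gene and its opposite-strand partner cannot be assigned to either, and all values of Dlx6, Dlx6os1, Dlx6os2, Dlx1 and Dlx1as are uncertain to that extent. The way the authors counted shared reads is not given in the sources used here.

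Where Dlx6os1 begins decides whether it crosses Dlx6, so the sequences before its starts are shown. RefSeq start windows were given for Dlx6os1, Dlx1 and Dlx2. Of the Dlx6os1 starts with a window, 1, at 6869533 on the minus strand, has the whole of Dlx6 downstream of it, 1562 bases away. The other, at 6861683, lies past Dlx6 by 1650 bases, and a transcript that begins there does not cross Dlx6. The Dlx6os1 span reaches on to 6871627, so a further start, with no window given, also lies upstream of Dlx6. FPKM per gene do not separate transcripts from these starts. The 250 bases before each start are printed 5′ to 3′ on the minus strand, with TAATTA, the core element bound by many homeodomain proteins, in capitals.
Dlx6os1, start that crosses Dlx6 (chr6:6869534-6869783): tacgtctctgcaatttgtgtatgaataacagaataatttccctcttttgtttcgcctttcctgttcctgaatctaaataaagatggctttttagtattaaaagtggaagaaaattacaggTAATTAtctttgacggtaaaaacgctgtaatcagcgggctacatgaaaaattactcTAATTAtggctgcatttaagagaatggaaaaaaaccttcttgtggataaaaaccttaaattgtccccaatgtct
Dlx6os1, start past Dlx6 (chr6:6861684-6861933): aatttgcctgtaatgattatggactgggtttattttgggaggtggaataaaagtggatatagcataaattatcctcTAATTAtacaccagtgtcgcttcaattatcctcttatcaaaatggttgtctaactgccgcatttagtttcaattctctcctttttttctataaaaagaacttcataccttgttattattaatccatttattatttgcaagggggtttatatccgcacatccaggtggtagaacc
The first window holds TAATTA 2 times and the second 1 time; the motif reads the same on both strands. Of 32851 windows of the same length in the RefSeq table, 4.84% hold it at least once and 0.39% at least 2 times. The Dlx1 and Dlx2 windows hold it 0 times. The Dlx6os1 windows are 33.2% and 34% G and C, the Dlx1 and Dlx2 windows 68% and 66.4%, and all windows together 53.2%. A match of letters is not a bound site.

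**Figure D2:**
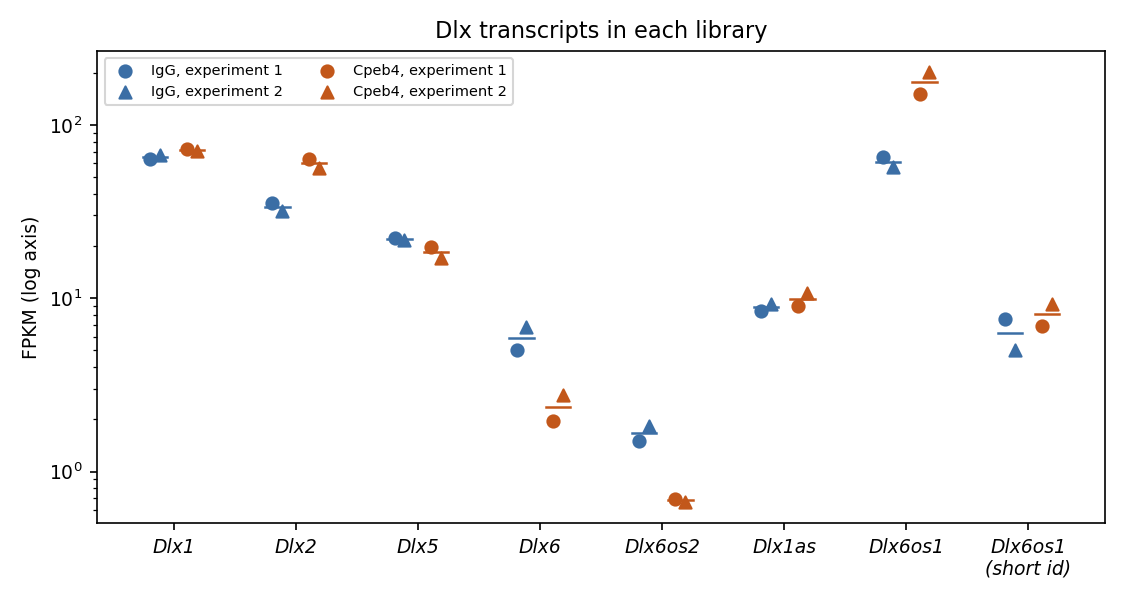
FPKM (log axis) of each Dlx transcript in the 4 libraries, with IgG in blue, Cpeb4 in orange, experiment 1 as circles, experiment 2 as triangles and a line at the mean of each pair. The Cpeb4 libraries lie above IgG for Dlx2 and the main Dlx6os1 identifier and below IgG for Dlx6 and Dlx6os2.

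Levels per length were compared between genes, within the limit on shared reads given above for Dlx6, Dlx6os1, Dlx1 and Dlx1as. In IgG precipitates, Dlx1 (65.2 ± 2.1 FPKM, mean ± SD, n = 2) and Dlx6os1 (61.1 ± 5.28) were the most abundant members, and their libraries overlapped. Dlx2 (33.7 ± 2.42), Dlx5 (22 ± 0.448) and Dlx1as (8.87 ± 0.569) followed in that order without overlap. The short Dlx6os1 identifier (6.3 ± 1.77) and Dlx6 (5.93 ± 1.28) overlapped at the bottom. In Cpeb4 precipitates Dlx6os1 (176 ± 35.3) stood first, ahead of Dlx1 (72 ± 1.28), Dlx2 (60.1 ± 4.92) and Dlx5 (18.4 ± 1.81). Dlx1as (9.9 ± 1.17) and the short Dlx6os1 identifier (8.12 ± 1.7) overlapped, and Dlx6 (2.36 ± 0.579) was last. Dlx1 had a higher IgG mean than 96.4% of tested genes, and Dlx6 a higher one than 45.5%. The family thus spanned from abundant to mid-level transcripts. Dlx3 and Dlx4, the remaining Dlx genes, which act mainly outside the brain, were not above 0.331 FPKM in any library and were not tested.

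Dlx1 and Dlx2 act redundantly at the start of interneuron specification. Dlx2 was at 63.6 and 56.7 FPKM in the Cpeb4 libraries of experiments 1 and 2, while the IgG libraries had 35.4 and 32 FPKM. Both Cpeb4 libraries lay above both IgG libraries, as they did for 53.2% of tested genes. On the log2 scale Dlx2 was higher by 0.82 (SE 0.12, limma adjusted p = 4.24e-05), 0.83 in experiment 1 and 0.80 in experiment 2, and 0.63 above the median of tested genes. Dlx2 was higher than IgG under all 5 scalings, at log2 0.32 to 0.82, and was called under 4 of them. With read totals the call was lost (log2 0.32, limma adjusted p = 0.0514), and with the trend on gene length and level removed it was kept at 0.35 (limma adjusted p = 0.0229).

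Dlx1 was at 72.9 and 71.1 FPKM in Cpeb4 and 63.7 and 66.7 FPKM in IgG libraries. The groups did not overlap, but the difference was small (log2 0.14, SE 0.13, limma adjusted p = 0.369) and 0.04 under the median of tested genes. The sign of the Dlx1 value depended on the scaling. It was negative under each of the other 4, from -0.36 with read totals (limma adjusted p = 0.0297) to -0.13 with trimmed mean of M-values (limma adjusted p = 0.442). With the trend on gene length and level removed it was called lower at -0.54 (limma adjusted p = 0.00163), where 25.4% of genes were lower and 23.9% higher.

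A ratio of 2 FPKM inside a library does not depend on the scaling. Dlx2 was at 0.872 and 0.796 times the Dlx1 level in Cpeb4 libraries, and at 0.556 and 0.48 times in IgG libraries. The ratio was 1.57 times as high with Cpeb4 in experiment 1 and 1.66 times in experiment 2. The neighbours in the chromosome 2 cluster thus differed in how much of each came down, a description over 2 experiments with no test of its own.

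Dlx5 and Dlx6 act after Dlx1 and Dlx2 in the same lineage. Dlx6 was at 1.96 and 2.77 FPKM in Cpeb4 libraries, from 133 and 122 reads, and at 5.02 and 6.84 FPKM in IgG libraries, from 323 and 411 reads. Both Cpeb4 libraries lay below both IgG libraries, as they did for 22.7% of tested genes. The limma estimate was log2 -1.04 (SE 0.14, adjusted p = 1.07e-05), -1.03 in experiment 1 and -1.05 in experiment 2. Of all tested genes, 1.51% had a lower log2 fold change. Without the pseudocount, the mean FPKM of Dlx6 was 2.51-fold lower in Cpeb4 than in IgG. Dlx6 was called lower under all 5 scalings, at log2 -1.43 to -1.04.

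Dlx5 was at 19.7 and 17.1 FPKM in Cpeb4 and 22.3 and 21.7 FPKM in IgG libraries. The groups did not overlap, and the limma estimate was log2 -0.25 (SE 0.12, adjusted p = 0.102). Under each of the other 4 scalings Dlx5 was also lower, and there it was called, at log2 -0.73 to -0.51 (limma adjusted p between 2.3e-06 and 0.00217). It was 0.44 under the median of tested genes with the authors' scaling. Without Cpeb4 replicate 1 Dlx5 was called lower at log2 -0.34 (limma adjusted p = 0.00803), as were 15.9% of tested genes. Dlx6 was at 0.0993 and 0.162 times the Dlx5 level in Cpeb4 libraries and at 0.225 and 0.315 times in IgG libraries, so the ratio was lower with Cpeb4 in both experiments.

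**Figure D3:**
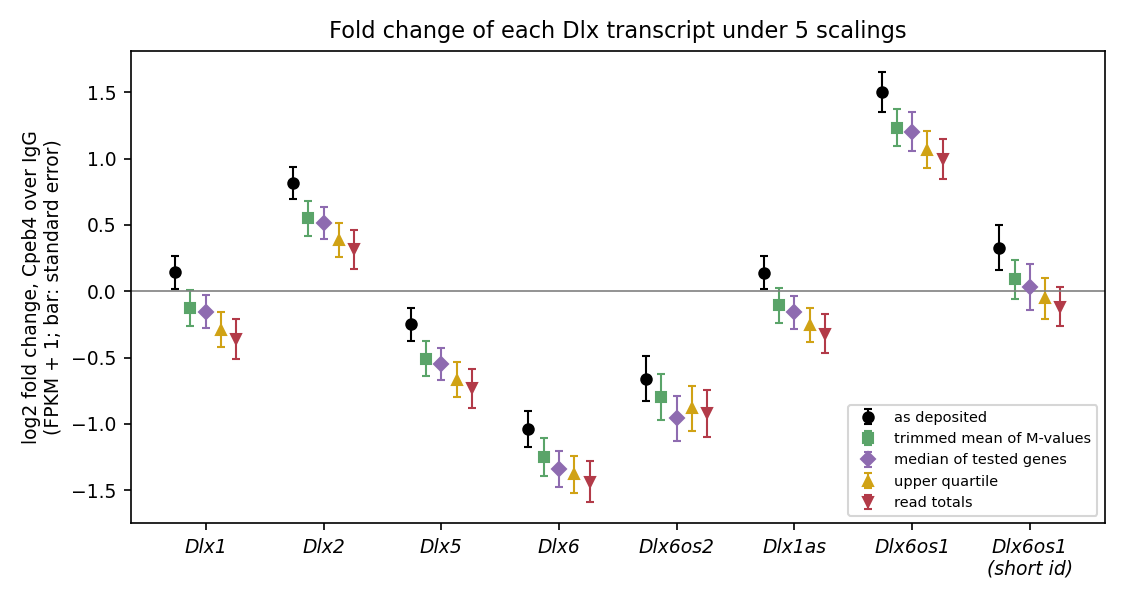
Log2 fold change of Cpeb4 over IgG on the FPKM + 1 scale for each Dlx transcript under 5 scalings, with bars for the standard error of the limma fit. Dlx6os1 stays between 0.999 and 1.50 and Dlx6 between -1.43 and -1.04, while Dlx1, Dlx1as and the short Dlx6os1 identifier cross 0.

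The noncoding members were Dlx6os1 and Dlx1as. The main Dlx6os1 identifier (ENSMUSG00000090063.6), whose FPKM imply 4608 bases of exon, was at 151 and 201 FPKM in Cpeb4 libraries and at 64.8 and 57.4 FPKM in IgG libraries. As RPM, gene reads scaled to the library total, it was at 611 and 752 in the Cpeb4 libraries and at 360 and 319 in the IgG libraries. Both Cpeb4 libraries lay far above both IgG libraries. On the log2 scale it was higher by 1.50 (SE 0.15, limma adjusted p = 6.75e-07), 1.21 in experiment 1 and 1.79 in experiment 2. It was higher than that of 97.2% of tested genes and 1.32 above their median. Dlx6os1 was called higher under all 5 scalings, at log2 0.999 to 1.50, and with the trend on gene length and level removed it was called at a lower value, 0.76 (limma adjusted p = 0.000404).

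The second Dlx6os1 identifier (ENSMUSG00000098326.1) is short, with 146 bases implied, and rested on 31 and 27 reads in Cpeb4 and 32 and 20 reads in IgG libraries. The exact Poisson 95% interval of the 20 reads runs from 12.2 to 30.9, and that of the 32 reads from 21.9 to 45.2. At 6.92 and 9.32 FPKM against 7.55 and 5.05 FPKM the groups overlapped, and no difference was detectable at this depth (log2 0.33, SE 0.17, limma adjusted p = 0.117). Without Cpeb4 replicate 1 it was called higher at log2 0.52 (limma adjusted p = 0.0189), as were 41.5% of tested genes, and its sign turned with read totals (-0.12) and the upper quartile (-0.05).

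Dlx1as was at 9.07 and 10.7 FPKM in Cpeb4 and 8.46 and 9.27 FPKM in IgG libraries, from 149 to 195 reads. The groups overlapped, and the limma estimate was log2 0.14 (SE 0.12, adjusted p = 0.369), the same as that of Dlx1 to 2 decimals. As for Dlx1, the value was negative under the other 4 scalings, at -0.32 to -0.11, and called only with read totals (limma adjusted p = 0.0464). With 1 library left out it lay between 0.03 without Cpeb4 replicate 2 and 0.25 without Cpeb4 replicate 1. Dlx6os2, which is no member but shares the locus, was at 0.698 and 0.67 FPKM in Cpeb4 and 1.5 and 1.82 FPKM in IgG libraries, from 18 to 67 reads. It was called lower (log2 -0.66, SE 0.17, limma adjusted p = 0.00455) under the authors' scaling and the other 4. The Dlx6os2 call was lost without IgG replicate 2 (log2 -0.57, limma adjusted p = 0.0611). It was also lost when genes of any level were tested (limma adjusted p = 0.071), and the value was -1.16 with a pseudocount of 0.1 and -1.25 with limma-voom.

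Under the other scalings more members were called lower, as were more of all tested genes. The count of members called higher changed only with read totals. With read totals 1 identifier was higher (17.6% of all tested genes) and 4 lower (41.5%). With the upper quartile 2 were higher (20.3%) and 2 lower (37.3%), with trimmed mean of M-values 2 (26.5%) and 2 (26%), and with centring on the median 2 (22.9%) and 2 (30.8%). In the authors' deposited table the same identifiers passed an adjusted p of 0.05 as here: Dlx6os1 and Dlx2 higher, where 21.7% of genes with an adjusted p were higher, and Dlx6 lower, where 4.93% were. The authors' deposited table gives Dlx6os1 a log2 fold change of 1.51 (SE 0.17, adjusted p = 7.06e-17), Dlx2 0.83 (SE 0.15, adjusted p = 8.34e-07) and Dlx6 -1.34 (SE 0.27, adjusted p = 7.3e-06). For Dlx5 the authors' deposited table gives -0.27 (adjusted p = 0.335), for Dlx1 0.14 (adjusted p = 0.563), for Dlx1as 0.15 (adjusted p = 0.794) and for the short Dlx6os1 identifier 0.36 (adjusted p = 0.78). In the authors' deposited table Dlx6os2 stands at -1.28 with an adjusted p of 0.087, which misses 0.05.

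**Figure D4:**
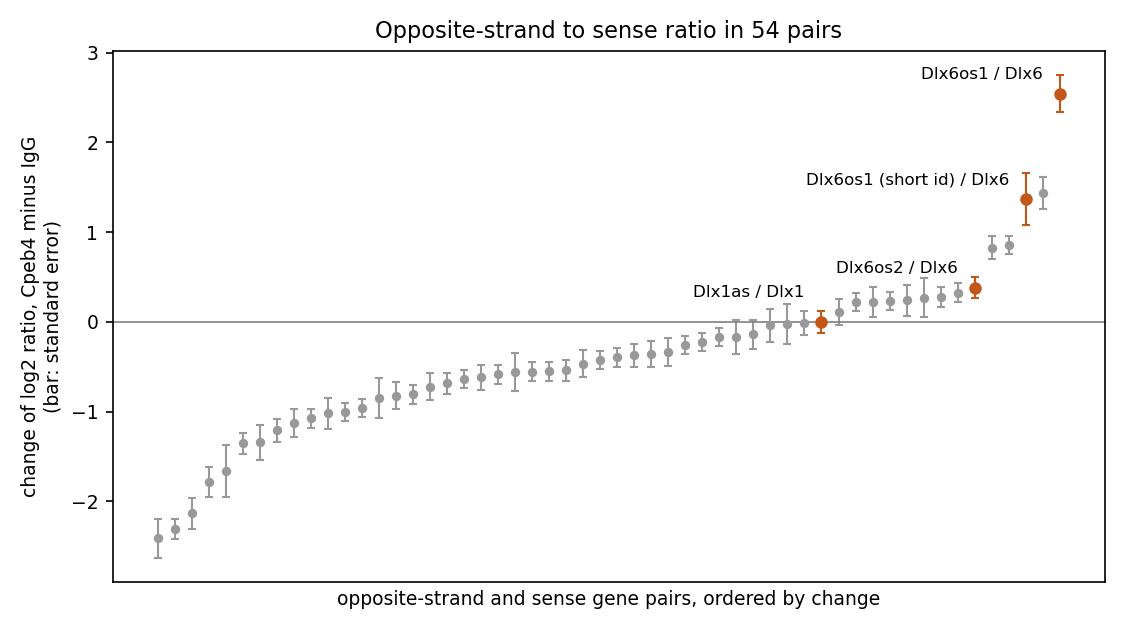
Change of the log2 ratio of an opposite-strand transcript to its sense gene, Cpeb4 minus IgG on the FPKM + 1 scale, for 54 pairs in order of the change, with bars for the standard error and the Dlx pairs in orange. Dlx6os1 over Dlx6 is highest at 2.54, while Dlx1as over Dlx1 lies at 0.

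The opposite-strand transcripts were then set against their sense genes within each library. Dlx6os1 was at 77.4 and 72.6 times the Dlx6 level in Cpeb4 libraries, and at 12.9 and 8.39 times in IgG libraries. The ratio was thus 6 times as high with Cpeb4 in experiment 1 and 8.65 times in experiment 2. On the log2(FPKM + 1) scale it was higher by 2.54 (SE 0.21, limma adjusted p = 0.0183 over 54 pairs of a gene and a transcript named as its opposite strand). Dlx1as was at 0.124 and 0.151 times the Dlx1 level in Cpeb4 and 0.133 and 0.139 times in IgG libraries, and its log2 ratio differed by 0.00 (SE 0.12, limma adjusted p = 0.986). The pairs of the 2 Dlx clusters thus gave different values, though the difference between the pairs was not tested. The short Dlx6os1 identifier over Dlx6 was higher by 1.37 (SE 0.29, limma adjusted p = 0.0453), a call that was lost with limma-voom (adjusted p = 0.0675), without Cpeb4 replicate 1 (adjusted p = 0.0852), without Cpeb4 replicate 2 (adjusted p = 0.087) and with the trend on gene length and level removed (adjusted p = 0.0552). Dlx6os2 over Dlx6 differed by 0.38 (SE 0.11, limma adjusted p = 0.0822).

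More pairs went the other way. The ratio was called higher in 9.26% of the 54 pairs and lower in 42.6%, and the median change was -0.41. The 5 pairs with a higher ratio were those of Dlx6 with its 2 Dlx6os1 identifiers, Chd3os over Chd3 (1.44), Tmem147os over Tmem147 (0.85) and Mkln1os over Mkln1 (0.82). The 2 Dlx6os1 pairs share the same Dlx6 values, and the short identifier itself was not called (log2 0.33). The opposite-strand transcript was called higher and the sense gene lower in 2 pairs, Dlx6os1 with Dlx6 and Chd3os with Chd3. The reverse held in 9 pairs, among them Sp3os, Rab10os and Prox1os with ratio changes of -2.41, -2.31 and -2.14. These pairs, apart from those of Dlx6, were named after their values were seen. Without a strand mark, reads from a stretch shared by any of the 54 pairs cannot be assigned to either gene. Where the genes of a pair overlap, its ratio is uncertain to that extent.

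A split by RefSeq gene type was added after the values were seen. Among 631 tested genes listed as lncRNA, 24.4% were called higher and 19.8% lower, with a median of 0.02, whereas of 12645 protein-coding genes 42.7% were higher and 8.03% lower, with a median of 0.23. Dlx6os1 was among 6 lncRNAs with a log2 fold change of at least its own. By mean FPKM it ranked 7 among these lncRNAs in IgG and 4 in Cpeb4 precipitates.

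**Figure D5:**
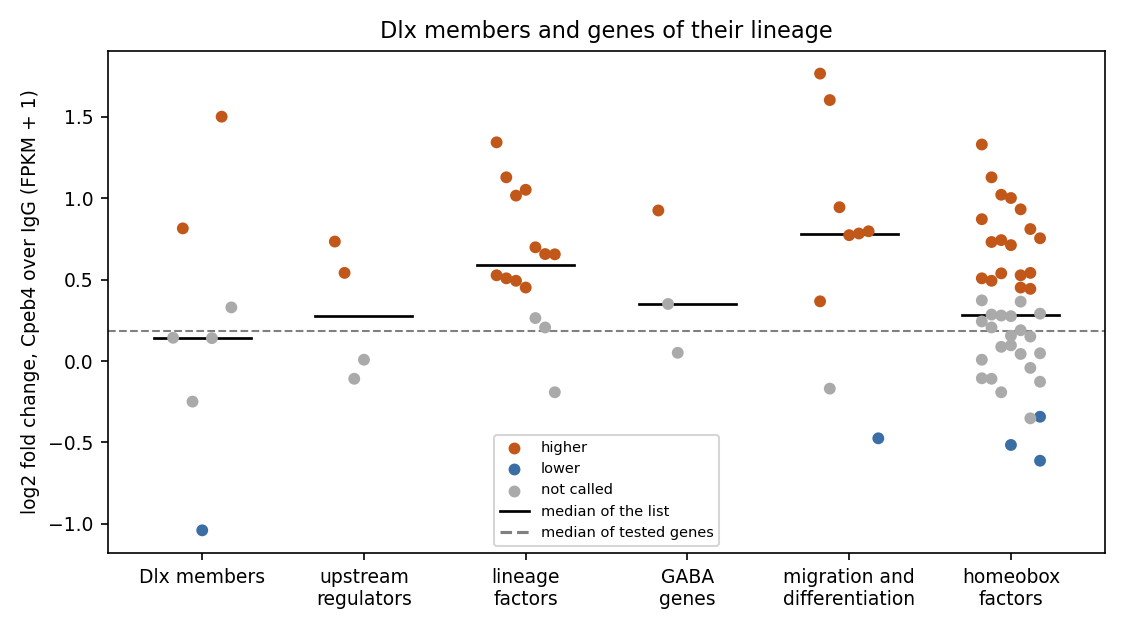
Log2 fold change of Cpeb4 over IgG on the FPKM + 1 scale for the Dlx members and tested genes of 5 lists, coloured by call, with the median of each list as a line and the median of all tested genes (0.19) dashed. The Dlx members run from -1.04 to 1.50, and the median of the lineage factors lies at 0.59.

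The genes around Dlx in the interneuron programme were described beside it. Of 4 regulators that act upstream, 2 were called higher and 0 lower (median 0.27), against 38.8% and 11.6% of all tested genes. Under all 5 scalings 0 of the 4 were higher, against 17.4%. The homeodomain factor Gsx2, which switches on Dlx genes in ventral progenitors, had a log2 fold change of 0.54 (limma adjusted p = 0.00232) and was called with the authors' scaling only. Gsx1 (-0.11) and Nkx2-1 (0.01) were not called, though Gsx1 was called lower under 3 of the other scalings.

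Of 14 transcription factors of the lineage, 11 were called higher and 0 lower, with a median of 0.59, against 38.8% higher and 11.6% lower over all tested genes. Under all 5 scalings 4 of the 14 were higher, against 17.4% of all tested genes, while 11.6% of all were lower. Those 4 were Etv1, Tshz1, Maf and Sp8. Etv1, found in dopaminergic interneurons of the olfactory bulb, was at 32.5 and 38.4 FPKM in Cpeb4 and 14.2 and 12.5 FPKM in IgG libraries (log2 fold change 1.34, SE 0.13). Tshz1 had a log2 fold change of 1.13 (SE 0.12). Maf and the zinc finger factor Sp8 had 1.02 (SE 0.14) and 1.05 (SE 0.16). The limma adjusted p of these 4 lay between 5.77e-07 and 3.58e-05.

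Of the 3 GABA genes, Gad2, a GABA-synthesising enzyme under Dlx control, was at 71.7 and 76.4 FPKM in Cpeb4 and 38.5 and 38.5 FPKM in IgG libraries. It was higher by log2 0.93 (SE 0.12, limma adjusted p = 1.36e-05), and it was called under all 5 scalings. Its paralog Gad1 was at 75.9 and 99.8 FPKM against 71.2 and 65.1 FPKM and was not called (log2 0.35, limma adjusted p = 0.0516), with a sign that turned with read totals (-0.15). The vesicular GABA transporter Slc32a1 was at 5.18 and 4.77 FPKM against 4.26 and 5.32 FPKM (log2 0.05, limma adjusted p = 0.787), and was called lower under 1 of the other scalings (-0.37).

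Of 9 migration and differentiation genes under Dlx control, 7 were called higher and 1 lower (median 0.78), against 38.8% and 11.6% of all tested genes. Under all 5 scalings 4 of the 9 were higher, against 17.4%. Pak3, a kinase that Dlx proteins repress to keep neurites short during migration, was higher by log2 1.77 (SE 0.13, limma adjusted p = 5.67e-08), at 46.1 and 55.9 FPKM against 14.3 and 14.1 FPKM. The microtubule protein Map2 had 1.60 (SE 0.15, limma adjusted p = 4.09e-07), the prokineticin receptor Prokr2 0.95 (SE 0.12, limma adjusted p = 1.07e-05) and the oligodendrocyte factor Olig2, which Dlx1 and Dlx2 repress, 0.77 (SE 0.12, limma adjusted p = 6.56e-05), a call lost with read totals. Cxcr4, a chemokine receptor of migrating interneurons, was the lower member, under all 5 scalings, at 2.29 and 2.01 FPKM against 3.34 and 3.41 FPKM (log2 -0.48, limma adjusted p = 0.0126).

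Homeobox transcription factors outside the Dlx family, chosen by symbol, gave 18 higher and 3 lower of 43 tested, against 38.8% and 11.6% of all tested genes. Their median was 0.29, beside 0.19 for all genes, and 10 of them also stand in the lists above. The symbol rule also caught Paxip1, Paxbp1, Paxx and Pbxip1, which are no homeobox factors and were taken out after their values were seen; with them it was 19 higher and 3 lower of 47. Of the 43, 8 were higher and 3 lower under all 5 scalings, against 17.4% and 11.6% of all tested genes. Besides Tshz1, those with the smallest adjusted p included Prox1 (log2 1.33, uncertain since it shares its locus with Prox1os) and Satb1 (25.8 and 29.4 FPKM against 12.3 and 14.3 FPKM), with a limma adjusted p between 5.64e-07 and 4.5e-06. The lower ones were Zfhx2 (-0.61), Tshz2 (-0.52) and Pbx2 (-0.34), named after their values were seen. Dlx6, at -1.04, was lower than each of these 3.

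Protein-coding neighbours of the loci were checked too. Metap1d, 2918 bases before Dlx1, had a log2 fold change of 0.36 (limma adjusted p = 0.0264). Itga6, 240131 bases away on the Dlx2 side, had 0.99 (limma adjusted p = 5.62e-06). Sem1, 241884 bases before Dlx6os1, had 0.41 (limma adjusted p = 0.0166), and Sdhaf3, 73902 bases past Dlx5, 0.85 (limma adjusted p = 0.000189). All 4 were called higher with the authors' scaling, as were 38.8% of all tested genes, whereas Metap1d and Sem1 were called under no other. The lower values of Dlx6 and Dlx6os2 were not shared by these flanking genes.

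Genes with the most similar profile were found among 13063 tested genes without a predicted symbol, by Euclidean distance of centred log2(FPKM + 1) over the 4 libraries. With 4 points that share their scaling, such likeness is a description. Car8 and Alcam lay nearest to the main Dlx6os1 identifier, at distances of 0.00851 and 0.0193. Ptx3 and Cnot8 lay nearest to Dlx2 (0.018 and 0.0318), Cadps2 and Ecd to Dlx1 (0.0115 and 0.0205), Porcn and Chac1 to Dlx5 (0.0128 and 0.0149) and Peg3 and Csmd3 to Dlx1as (0.0184 and 0.0208). Dlx6 had no such close neighbour, with Dhx9 and Try5 at 0.141 and 0.145. For the short Dlx6os1 identifier the nearest were Il33 and Zfp59 (0.0582 and 0.155).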

How the data were processed

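RNA was precipitated with anti-Cpeb4 or anti-IgG, amplified with a low-input SMART-Seq kit and made into Nextera XT libraries, per the labels' protocols. Such kits prime on poly(A) and keep neither strand nor molecular identifiers. Tools listed in the submitters' processing notes are STAR 2.6.0c, HTSeq 0.6.1p2 and DESeq2 1.26.0, with Trim Galore 0.5.0 and FastQC 0.11.5, and the build is mm10. The authors deposited 1 table with FPKM per library, a mean normalised signal, a log2 fold change and its standard error, a test score, p-values and adjusted p-values for each gene.

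Genes with at least 1 FPKM in at least 2 libraries were tested with limma 3.58.1 (R 4.3.3, two-sided) on log2(FPKM + 1). This fit used a trended prior and the experiment as a block. Its residual degrees of freedom were 1 and its prior added 14.6. Log2 ratios of opposite-strand to sense genes were fitted apart, over the 54 pairs, with the same block. The prior of the ratio fit had no trend and came from those pairs alone. Whole reads were recovered from FPKM steps (100% of values within 0.01 of a whole read) and used for depth, scalings and limma-voom. Planned edgeR and DESeq2 fits were not run, because the unit is FPKM. Same-numbered libraries did not deviate together (correlation 0.0024), so the numbers come from the labels only. Named beside the members are at most 4 genes per list with the smallest adjusted p, lists of up to 4 whole, and 2 nearest profiles per member; some genes of these lists are counted but not reported here. Members and lists were chosen with earlier results of these data known.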

Additional observations from a re-analysis of the deposited data

How the results depend on the processing

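The counts over all genes moved most with scaling. Against 6106 genes higher and 1822 lower, read totals gave 2768 and 6534, the upper quartile 3197 and 5879, trimmed mean of M-values 4093 lower, centring on the median 3607 and 4857, no filter on low values 3915 and 875, and the trend on length and level removed, chosen after seeing the data, 3741 and 3971. Leaving out 1 library at a time gave 3977 to 6534 higher and 867 to 2497 lower, in fits without the block whose lone library is assumed to vary like the other group. Without the replicate block 6007 were higher and 1714 lower, and the pairing changed no member's call.

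For Dlx1 the log2 value was -0.36 with read totals, -0.29 with the upper quartile, -0.13 with trimmed mean of M-values, -0.16 with centring and -0.54 with the trend removed. For Dlx1as these were -0.32, -0.26, -0.11 and -0.16 under the 4 scalings, and 0.0314 to 0.25 with 1 library left out. Dlx5 was -0.73, -0.67, -0.51, -0.55 and -0.43, and -0.34 to -0.15 with 1 library left out. Dlx2 was 0.32 with read totals and 0.35 with the trend removed. The short Dlx6os1 identifier was -0.12 with read totals, -0.0538 with the upper quartile and 0.08 to 0.58 with 1 library left out. Its ratio to Dlx6 was 1.70 with limma-voom, 1.54 with the trend removed, both without a call, and 0.93 to 1.81 with 1 library left out. The ratio of Dlx1as to Dlx1 was 0.0393, 0.0337, 0.0201, 0.009 and 0.0106 with read totals, upper quartile, trimmed mean, a pseudocount of 0.1 and limma-voom, 0.62 with the trend removed and -0.13 to 0.13 with 1 library left out. Dlx6os1, Dlx6 and the ratio of Dlx6os1 to Dlx6 (1.94 to 2.84) kept their calls under every alternative run; the causes of the other changes were not tested. Depth limits the short Dlx6os1 identifier most, at 20 to 32 reads per library.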
